A study of Mus musculus with 6 samples.

Results

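Platelet-derived growth factors (PDGFs) and hepatocyte growth factor (HGF) were examined in corneal keratocytes, the resident cells of the collagen-rich stroma, after loss of the Hedgehog receptor Ptch1. Genes were chosen by name, with earlier results of these data known. They were the 4 PDGF ligands Pdgfa, Pdgfb, Pdgfc and Pdgfd, the receptors Pdgfra and Pdgfrb, and Hgf with its receptor Met. All 8 were among the 17606 genes of the expression table, and all 8 were among the 13888 with enough counts to be tested. Keratocytes were sorted from corneas of mice labelled as 10 weeks old that had been given 3 doses of tamoxifen (TAM) and were collected 1 month later, in both groups. The Ptch1-ablated group (3 libraries) was Prrx1-CreERT;Ptch1 f/f, in which TAM activates a Cre recombinase expressed from the Prrx1 locus. The other 3 libraries came from age-matched control mice, and the alleles these carried were not given in the sources used here. Prrx1-CreERT also recombines in corneal endothelium and in other mesenchymal cells of the eye, which limits the model, and the sorting gate was not stated.

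PDGF chains form dimers that bring receptor chains together and switch on their tyrosine kinase. The alpha receptor, encoded by Pdgfra, binds dimers of the A, B and C chains, and the beta receptor, encoded by Pdgfrb, binds those of the B and D chains. In many organs PDGF-A and PDGF-C act on fibroblast-like mesenchyme, while PDGF-B from blood vessels recruits pericytes. HGF is made mainly by mesenchymal cells, including keratocytes, and acts through Met, which is prominent on epithelia, among them the corneal epithelium. In the cornea both families are known for exchange between stroma and epithelium during wound repair.

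The libraries held 20258439 to 24788063 estimated counts. Ptch1 had 104 to 369 counts in the controls and 4348 to 6230 in the ablated libraries, so the gene total was higher where deletion was labelled, and gene totals cannot show a deleted exon. Gli1, the transcriptional output of the pathway, had 1 to 36 counts in the controls and 3022 to 3098 after ablation. On the first principal component (50.1% of the variance) the groups were separate. On the second (18.8%) control replicate 1 and Ptch1-ablated replicate 2 stood apart from the other 4 libraries. The labelled cell type was checked with 7 keratocyte markers, all of them detected, whose summed level was 61370 to 65030 TPM in controls and 42590 to 47100 TPM in ablated libraries. All 7 had negative log2 ratios, and 4 were called lower (Kera, Aldh1a1, Tkt and Cd34, the last in 13 of 17 alternatives). TPM denotes transcripts per 1000000, a level per length. Markers of other cell types were detected at lower summed levels than those of keratocytes. Several of these sums were above that of the 4 PDGF ligands (40.9 to 76.7 TPM). Summed markers of leukocytes (8 genes) were at 1423 to 1641 TPM in controls and 1391 to 1806 TPM in ablated libraries, and those of corneal endothelium (6 genes) at 345.9 to 404 and 281 to 493 TPM. Most of the corneal endothelium sum was Col8a2 (340 and 303 TPM on average), while Col8a1 was called higher (log2 ratio of ablated to control 2.31, adjusted p = 9.80e-05 in edgeR) and Slc4a11 was without overlap at 20 to 174 counts against 346 to 650 but did not pass (2.12, adjusted p = 0.0541 in edgeR). Schwann cell markers (5 genes) summed to 189 to 220.1 and 215 to 267 TPM, and melanocyte markers (5 genes) to 1.28 to 5.59 and 2.48 to 5.83 TPM. In such bulk samples fewer cells of a type and less RNA per cell cannot be told apart.

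In Ptch1-ablated keratocytes Pdgfc rose about 3-fold, and it was the only one of the 8 genes that passed the test. Pdgfa, the most abundant ligand, was lower, and Pdgfd and Hgf were higher, in every ablated library than in every control library, but these differences did not pass once adjusted for all genes. Both PDGF receptors were abundant, and neither passed the test. A gene was called changed where edgeR gave it an adjusted p no higher than 0.05 together with a difference of 2-fold or more. By this rule 1 of the 8 was called, against 5.49% of all genes tested, of which 3.36% were higher and 2.13% lower. At an unadjusted p under 0.05 it was 4 of the 8 (Pdgfa, Pdgfc, Pdgfd and Hgf), against 20.6% of all genes. The groups did not overlap for these 4 genes, as was the case for 27.4% of all genes.

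**Figure D1:**
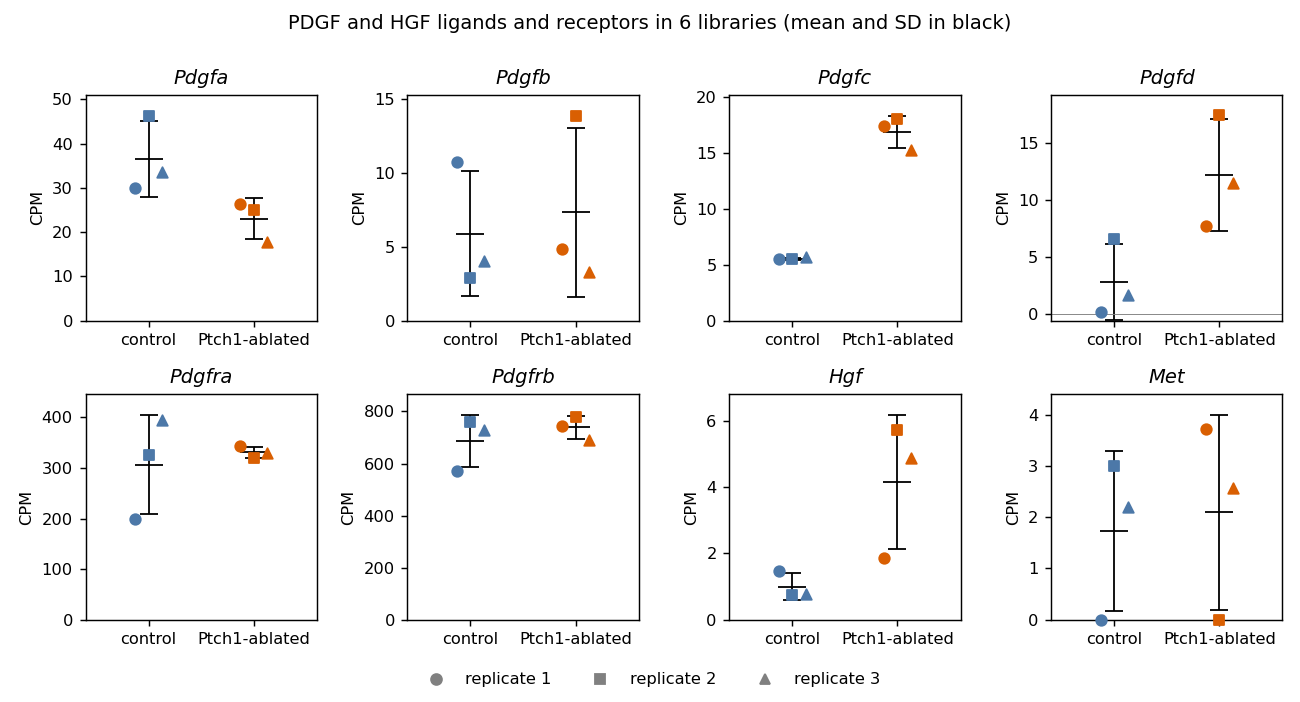
Level of each of the 8 genes in CPM (counts per 1000000 of the scaled library total; y axis, from 0 or below it where the SD reaches there) in the 3 control (blue) and 3 Ptch1-ablated (orange) libraries, with the mean and SD in black and a symbol for each replicate. Pdgfc is tight within each group and apart between groups, while Pdgfb and Met set control replicate 1 and Ptch1-ablated replicate 2 apart from the rest.

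The ligands were examined first. The log2 ratio given for each gene is that of the ablated to the control group as fitted by edgeR, so that positive values are higher after ablation. Pdgfc (Entrez 54635) encodes a chain that is secreted in a latent form and binds the alpha receptor once a protease has removed its CUB domain. It had 119, 104 and 129 counts across control replicates 1 to 3, against 408, 423 and 379 in Ptch1-ablated replicates 1 to 3. In CPM, which scales each library to a common total, these were 5.46, 5.47 and 5.65 against 17.4, 17.97 and 15.3. All 3 ablated libraries were thus above all 3 controls, and within each group the libraries lay close together. The means were 5.53 ± 0.105 and 16.9 ± 1.43 CPM (SD, n = 3 each), a log2 ratio of 1.61 ± 0.32 (SE) with a 95% interval of 0.91 to 2.30 and an edgeR adjusted p of 0.00744. Leaving out 1 library at a time kept this call, with log2 ratios from 1.57 to 1.67. The call was lost only on leaving out control replicate 3 together with Ptch1-ablated replicate 1, the libraries with the most epithelial marker RNA in their groups (1.61, adjusted p = 0.0872 in edgeR). That setting was added once the data had been seen. Among 10821 genes with a mean of at least 5 CPM, the profiles over the 6 libraries most like that of Pdgfc were those of Bcl2, Smox and Pltp. Their root mean square differences from it were 0.0874, 0.0913 and 0.0932 on the log2(CPM + 1) scale, with each gene centred on its own mean. Their own log2 ratios were 1.56, 1.54 and 1.38.

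Pdgfa (Entrez 18590) encodes the chain of PDGF-AA, the classical ligand of the alpha receptor. Its levels were 29.96, 46.3 and 33.5 CPM across control replicates 1 to 3, against 26.3, 25.02 and 17.8 CPM in the ablated replicates. The ranges did not overlap, although the highest ablated library lay close to the lowest control. The means were 36.6 ± 8.61 and 23.0 ± 4.63 CPM (SD, n = 3 each), a log2 ratio of -0.67 ± 0.26 (SE, adjusted p = 0.155 in edgeR). Its value was -0.46 without control replicate 2, the highest library. Epithelial markers were lower in the same direction. The 8 genes summed to 50.8, 72.6 and 89.5 TPM across control replicates 1 to 3, and to 9.16, 3.78 and 5.12 TPM in the ablated ones, and their part in the level of Pdgfa was not tested. Of these markers Krt5, Krt14 and Krt15, keratins of basal epithelium, were called lower, the call of Krt5 being lost in 6 of 17 alternatives (adjusted p up to 0.111). Krt12, the keratin of differentiated corneal epithelium, was at 0 in every control and had 21, 49 and 52 counts after ablation, and its call as higher was lost in 7 of 16 alternatives.

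The start regions of the gene that rose and of the ligand that remained most abundant are shown because they differ in base composition. Each run gives the 250 bases before an annotated start in RefSeq, build GRCm38.p6, read 5' to 3' on the strand of the gene. For Pdgfa, which has more than 1 annotated start, the window of the outermost start is given. Capitals would mark matches to the motifs searched, and neither window holds one.
Pdgfc, chr3:81036166-81036415, plus strand: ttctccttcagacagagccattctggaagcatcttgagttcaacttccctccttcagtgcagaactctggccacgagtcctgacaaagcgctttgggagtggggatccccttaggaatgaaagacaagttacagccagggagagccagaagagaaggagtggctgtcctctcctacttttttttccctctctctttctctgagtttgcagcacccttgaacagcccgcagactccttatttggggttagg
Pdgfa, chr5:138994945-138995194, minus strand: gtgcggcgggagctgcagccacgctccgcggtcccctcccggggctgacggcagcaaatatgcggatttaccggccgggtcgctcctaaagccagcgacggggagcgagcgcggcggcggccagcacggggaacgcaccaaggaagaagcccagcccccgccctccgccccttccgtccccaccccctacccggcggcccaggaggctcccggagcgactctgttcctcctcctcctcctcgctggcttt
The Pdgfc window was 50.8% G or C with 3 CpG dinucleotides, and the Pdgfa window was 72.4% G or C with 28. The medians over 32851 start windows were 52.4% and 6. The other Pdgfa window was 66.4% G or C with 19. That of Met, which was not called, was 74.0% with 24. The windows of Hgf, Pdgfra and Pdgfd, also not called, were 50.8% to 54.4% with 3 to 5. Windows were at hand for 6 of the 8 genes, 8 windows in all. On both strands the GLI consensus GACCACCCA was in 0 of these 8 windows and in 0.225% of all windows. The EGR consensus (GCGTGGGCG or GCGGGGGCG, 3.06% of all) and the SP1 GC box GGGGCGGGG (10.4% of all) were likewise in 0 of the 8. The AP-1 site TGACTCA was in 1, that of Met, and in 4.46% of all, and TATAAA was in 1, that of Pdgfd, and in 12.4% of all. These are matches of letters in short windows only.

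Pdgfd (Entrez 71785) encodes the other latent chain with a CUB domain, which binds the beta receptor. It had 3, 125 and 38 counts across control replicates 1 to 3, against 180, 411 and 286 in the ablated replicates. In CPM the controls were at 0.138, 6.57 and 1.66 and the ablated libraries at 7.67, 17.5 and 11.5. The controls spread widely, and control replicate 2 came close to the lowest ablated library. The log2 ratio was 2.14 ± 0.87 (SE, 95% interval 0.23 to 4.05, adjusted p = 0.184 in edgeR). Without control replicate 2 it was 3.75 and was called (adjusted p = 0.0312 in edgeR), and without control replicate 1 it was 1.57. It was also called in limma on log2(TPM + 1), at 2.08, and on log2(TPM + 0.1), at 2.88.

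Pdgfb (Entrez 18591) encodes the chain that binds both receptors and is typical of endothelium. It was at 10.7, 2.89 and 4.03 CPM across control replicates 1 to 3, and at 4.82, 13.9 and 3.26 CPM in the ablated replicates. The high libraries were control replicate 1 and Ptch1-ablated replicate 2, the pair that stood apart on the second principal component, and the groups overlapped. The log2 ratio was 0.31 ± 0.64 (SE, 95% interval -1.09 to 1.72, adjusted p = 0.855 in edgeR). It was 1.08 without control replicate 1 and turned to -0.54 without Ptch1-ablated replicate 2. The sum of vascular endothelium markers (8 genes) did not follow this pattern across libraries. It was 302.5, 354 and 392.5 TPM across control replicates 1 to 3, and 563, 577 and 581 TPM in the ablated replicates. Tie1, Emcn, Cdh5 and Vwf were called higher. Kdr made up much of the sum, at 195 TPM in controls and 171 TPM after ablation on average. Within each group Tek and Emcn were highest in the same libraries as Pdgfb, and the other markers were not highest in both. Tek was at 31.84, 12.04 and 15.45 CPM in controls and 44.21, 52.51 and 37.08 CPM after ablation. The part of endothelium in the level of Pdgfb was not tested.

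The make-up of the ligand pool was then compared in TPM. The share of Pdgfa in the summed TPM of the 4 ligands was 70.0%, 82.5% and 78.1% across control replicates 1 to 3, against 56.5%, 41.2% and 43.9% in the ablated replicates. The share of Pdgfc was 6.70%, 5.34% and 8.58% in controls and 22.1%, 17.4% and 24.7% after ablation. That of Pdgfd was 0.559%, 7.35% and 2.76% against 11.1%, 18.9% and 22.3%. Each of these 3 shares was without overlap between groups. The 4 shares add up to the whole in each library, so a change in 1 moves the others, and the 3 are not separate results. The mean shares were 76.9 ± 6.34% and 47.2 ± 8.18% for Pdgfa, 6.87 ± 1.63% and 21.4 ± 3.71% for Pdgfc, and 3.56 ± 3.47% and 17.4 ± 5.79% for Pdgfd (SD, n = 3 each). An exact permutation test (two-sided) gave p = 0.1 for each, the smallest value that 3 against 3 samples allow, or 0.2 adjusted over the 6 quantities compared. Together Pdgfc and Pdgfd made up 7.26% to 12.7% of the ligand TPM in controls and 33.1% to 47.0% in ablated libraries. The ratio of Pdgfa to Pdgfc was 9.11 to 15.5 in controls and 1.78 to 2.56 after ablation. The share of Pdgfb overlapped, at 12.7 ± 9.15% and 14.0 ± 7.42% (SD, n = 3 each, exact permutation p = 1). The summed level of the 4 ligands was 48.3, 61.5 and 40.9 TPM in controls and 54.6, 76.7 and 41.4 TPM after ablation, which overlapped (exact permutation p = 0.6).

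**Figure D2:**
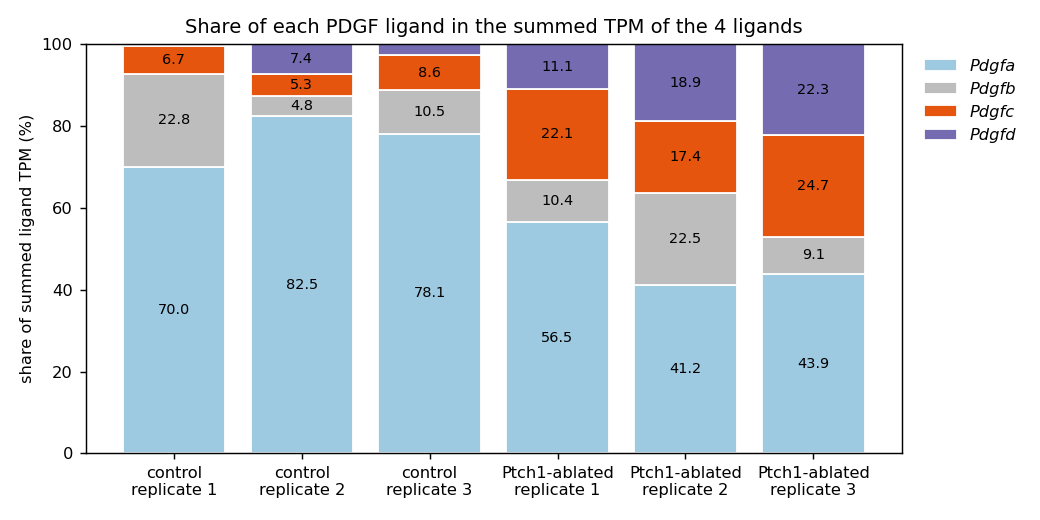
Share of Pdgfa, Pdgfb, Pdgfc and Pdgfd (stacked, in percent) in the summed TPM of the 4 ligands for each of the 6 libraries. The Pdgfa block fills 70.0% to 82.5% of the control bars and 41.2% to 56.5% of the Ptch1-ablated bars, where the Pdgfc and Pdgfd blocks are larger.

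The receptors were the most abundant of the 8 genes in every library. Pdgfra (Entrez 18595), which marks fibroblast-like mesenchyme, was at 200.2, 325 and 395 CPM across control replicates 1 to 3, and at 343, 321 and 329.7 CPM in the ablated replicates. All ablated values lay inside the range of the controls, in which replicate 1 was lowest. The log2 ratio was 0.11 ± 0.20 (SE, 95% interval -0.34 to 0.56, adjusted p = 0.835 in edgeR), and it turned to -0.12 without control replicate 1. Pdgfrb (Entrez 18596), shared by keratocytes and pericytes, was at 570.3, 758 and 729.9 CPM in controls and at 745.5, 779 and 689.9 CPM after ablation. In CPM the groups overlapped, and control replicate 1 was lowest. In TPM they did not, at 216.5, 290.6 and 289 TPM in controls and 331, 372 and 298 TPM after ablation. The log2 ratio was 0.11 ± 0.13 (SE, 95% interval -0.18 to 0.40, adjusted p = 0.735 in edgeR), and it was -0.012 without control replicate 1. The interval of each receptor thus ended below a 2-fold change in either direction. The size depended on the scaling, with log2 ratios of 0.28 for Pdgfrb and 0.29 for Pdgfra under library totals only and of 0.34 and 0.36 in limma on log2(TPM + 1), where neither gene passed the adjusted test (for Pdgfrb, adjusted p = 0.213 in edgeR and 0.182 in limma). Markers of mural cells (11 genes) summed to 200.1 to 209 TPM in controls and 445 to 467 TPM in ablated libraries. Of these Kcnj8 and Mcam were called higher, each call being lost without 1 of several libraries, and the part of mural cells in the level of Pdgfrb was not tested. The log2 ratio of Pdgfra to Pdgfrb TPM was -1.44 ± 0.32 in controls and -1.42 ± 0.14 after ablation (SD, n = 3 each, exact permutation p = 1).

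Per length, Pdgfrb led in controls at 265 ± 42.3 TPM, followed by Pdgfra at 101 ± 34.7 and Pdgfa at 38.8 ± 10.3 TPM (SD, n = 3 each). These 3 levels did not overlap with each other. Pdgfb (6.10 ± 4.30 TPM), Pdgfc (3.34 ± 0.146 TPM) and Pdgfd (1.97 ± 2.25 TPM) overlapped among themselves, as did Met (0.577 ± 0.507 TPM) and Hgf (0.54 ± 0.104 TPM). In ablated libraries the order began in the same way, with Pdgfrb at 334 ± 36.7, Pdgfra at 124 ± 4.72 and Pdgfa at 26.9 ± 7.53 TPM. Next came Pdgfc at 11.9 ± 1.55, Pdgfd at 9.93 ± 4.29 and Pdgfb at 8.89 ± 7.32 TPM, which overlapped, and then Hgf at 2.99 ± 2.40 and Met at 0.75 ± 0.684 TPM (SD, n = 3 each), which overlapped as well.

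Hgf (Entrez 15234) had the lowest mean level per length of the 5 ligands. It had 32, 14 and 18 counts across control replicates 1 to 3, against 44, 135 and 121 in the ablated replicates, or 1.47, 0.736 and 0.788 against 1.88, 5.74 and 4.87 CPM. The ablated libraries were all above the controls, but Ptch1-ablated replicate 1 was near control replicate 1. The log2 ratio was 2.05 ± 0.81 (SE, 95% interval 0.29 to 3.82, adjusted p = 0.164 in edgeR). It ran from 1.76 to 2.44 with 1 library left out, and it was called under no alternative (adjusted p from 0.0812 to 0.388).

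Met (Entrez 17295) had 0, 57 and 50 counts across control replicates 1 to 3, against 87, 0 and 64 in the ablated replicates. It was thus at 0 in control replicate 1 and in Ptch1-ablated replicate 2, the same libraries in which Pdgfb was highest. A count of 0 allows up to 3 counts, or 0.138 and 0.127 CPM in these libraries, which covers counting error only. In the other 4 libraries Met was at 2.19 to 3.71 CPM. The log2 ratio of 0.28 ± 1.56 (SE, 95% interval -3.14 to 3.69, adjusted p = 0.955 in edgeR) left the direction unresolved, and it was -0.31 without control replicate 1 and -0.41 without Ptch1-ablated replicate 1. The libraries with no Met count also held the least epithelial marker RNA of their groups (50.8 and 3.78 TPM). This match held only within groups. Ptch1-ablated replicates 1 and 3, with 87 and 64 Met counts, held 9.16 and 5.12 TPM, less than control replicate 1. Single markers of that list did not all follow the sum, since Epcam had 67 counts in control replicate 1 and 9 and 13 in the other controls. Cdh1 had 5 counts in control replicate 1, 31 in control replicate 3 and 0 in control replicate 2, where Met had 57. With Ptch1 ablated, Cdh1 (111, 0 and 43 counts) and Epcam (22, 3 and 16) ranked replicates 1 to 3 as Met did. No other marker of the list ranked them so. Krt12 had 21, 49 and 52 counts there, and made up 3.14 of the 3.78 TPM in Ptch1-ablated replicate 2. Krt5 (17, 0 and 0), Krt14 (19, 1 and 0) and Krt15 (22, 0 and 0) had no count in replicate 3, where Met had 64. The part of epithelial cells in the level of Met was not tested.

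**Figure D3:**
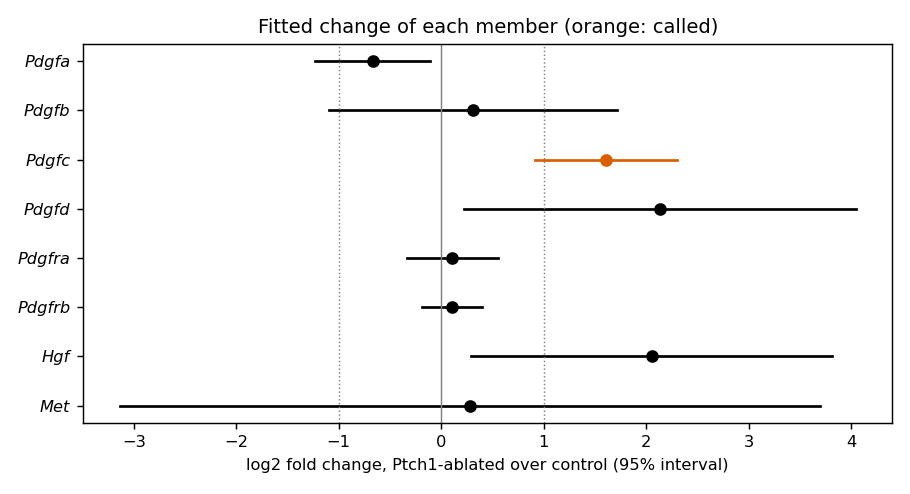
Log2 fold change of each gene, Ptch1-ablated over control (x axis), with its 95% interval from the edgeR fit (lines) and dotted lines at a 2-fold change in either direction. Pdgfc, in orange, was the gene called, the intervals of Pdgfra and Pdgfrb are short and lie within the dotted lines, and that of Met runs from -3.14 to 3.69.

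Genes that act with these ligands and receptors were compared as 5 lists of 98 genes in all, of which 92 were tested. Of these, 12 (13%) were called, 11 higher and 1 lower, where 5.49% of all genes were called. The median log2 ratio was 0.32 over these genes and 0.0046 over all genes tested. Because the lists were chosen with earlier results of these data known, these shares and medians are descriptions only. The lists differed in where the called genes lay, and each is described in turn.

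Among 14 proteases and inhibitors that govern activation of PDGFs and HGF, 9 were tested and 1 was called. Over all genes tested the share called was 5.49%. Spint2, which encodes an inhibitor of the proteases that activate HGF, had 54, 106 and 98 counts in controls and 343, 452 and 334 after ablation (log2 ratio 1.94 ± 0.40, SE, adjusted p = 0.00943 in edgeR). Every ablated library was above every control. Plat, for tissue plasminogen activator, which cleaves PDGF-C, was abundant at 114 ± 21.2 and 99.7 ± 8.79 TPM (SD, n = 3 each) and did not pass (-0.41 ± 0.18, SE, adjusted p = 0.21 in edgeR). Plau, for urokinase, which can cleave PDGF-D and HGF, was low at 18 to 73 counts (-0.54 ± 0.84, 0.798), and St14, for matriptase, had 0 to 58 counts (0.98 ± 1.39, 0.773). The convertases Furin (0.24 ± 0.24, 0.642) and Pcsk5 (0.75 ± 0.22, 0.0596) did not pass, the brackets holding the log2 ratio, its SE and the adjusted p.

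Among 19 binding partners and relatives 4 of 18 tested were called, where 5.49% of all genes tested were called. Sparc, a matrix protein that binds PDGF-B, fell from 6426 ± 113 to 3228 ± 89.2 TPM (SD, n = 3 each, log2 ratio -1.20 ± 0.087, SE, adjusted p = 4.21e-06 in edgeR). It fell short of the 2-fold minimum in both limma fits (-0.99). Kit, a receptor of the same class as the PDGF receptors, had 83, 74 and 163 counts in controls and 494, 533 and 492 after ablation (2.09 ± 0.35, SE, adjusted p = 0.00261 in edgeR). Its ligand gene Kitl had 237, 358 and 679 counts against 1001, 1229 and 1351 (1.33 ± 0.32, SE, adjusted p = 0.0232 in edgeR), a call lost without control replicate 2 or Ptch1-ablated replicate 2 or 3. Plxnb1, for a plexin that can associate with Met, had 98, 54 and 32 counts against 297, 283 and 195 (1.90 ± 0.51, SE, adjusted p = 0.0392 in edgeR), and it was called in 1 of the 6 fits that left out a library, the one without control replicate 1. The groups did not overlap for any of these 4 genes, as was the case for 27.4% of all genes tested. Cd44, whose product can serve as a co-receptor of Met, was lower by less than 2-fold (-0.71 ± 0.14, SE, adjusted p = 0.00609 in edgeR), and Nrp1, for a neuropilin that binds PDGFs, was higher by less than 2-fold (0.59 ± 0.14, SE, adjusted p = 0.0173 in edgeR). Mst1r, for the Met relative Ron, did not pass (-0.93 ± 0.38, SE, adjusted p = 0.182 in edgeR), and neither did Csf1r, a further relative of the PDGF receptors (0.23 ± 0.16, SE, adjusted p = 0.462 in edgeR).

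Of 33 adaptors and signal transducers, the shared machinery below these receptors, 2 were called and 31 were not. That share was close to the 5.49% of all genes tested. Gab1, for the docking protein that carries much of the signal from Met, had 1764, 1355 and 1551 counts in controls and 14376, 12122 and 13134 after ablation. Every ablated library was far above every control, with a log2 ratio of 2.91 ± 0.14 (SE, adjusted p = 2.39e-07 in edgeR). The related docking gene Gab2 had 419, 295 and 446 counts against 996, 1483 and 1104 (1.47 ± 0.24, SE, adjusted p = 0.00206 in edgeR). The list as a whole had a median log2 ratio of 0.16. Core members such as Grb2 (-0.11 ± 0.29), Ptpn11 (-0.25 ± 0.21) and Mapk3 (0.25 ± 0.20) did not pass, the brackets giving log2 ratios with their SE.

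Of 18 feedback and negative regulators 1 was called, a share close to the 5.49% of all genes tested. Spry1, a Sprouty gene that dampens signaling from receptor kinases, had 249, 217 and 301 counts in controls and 657, 665 and 792 after ablation (1.29 ± 0.25, SE, adjusted p = 0.0058 in edgeR). Its groups did not overlap. The list had a median log2 ratio of 0.43. Immediate early genes respond to many growth factors and to other stimuli. Of the 14 listed, 4 were called, all of them higher, where 3.36% of all genes tested were called higher. These were Myc (2.14 ± 0.21), Jun (1.45 ± 0.13), Fosb (1.18 ± 0.13) and Nr4a1 (1.15 ± 0.14), given as log2 ratios with their SE (edgeR adjusted p from 2.17e-05 to 0.000183). The other 10 had log2 ratios from 0.11 to 0.95, and the median of the 14 was 0.77.

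**Figure D4:**
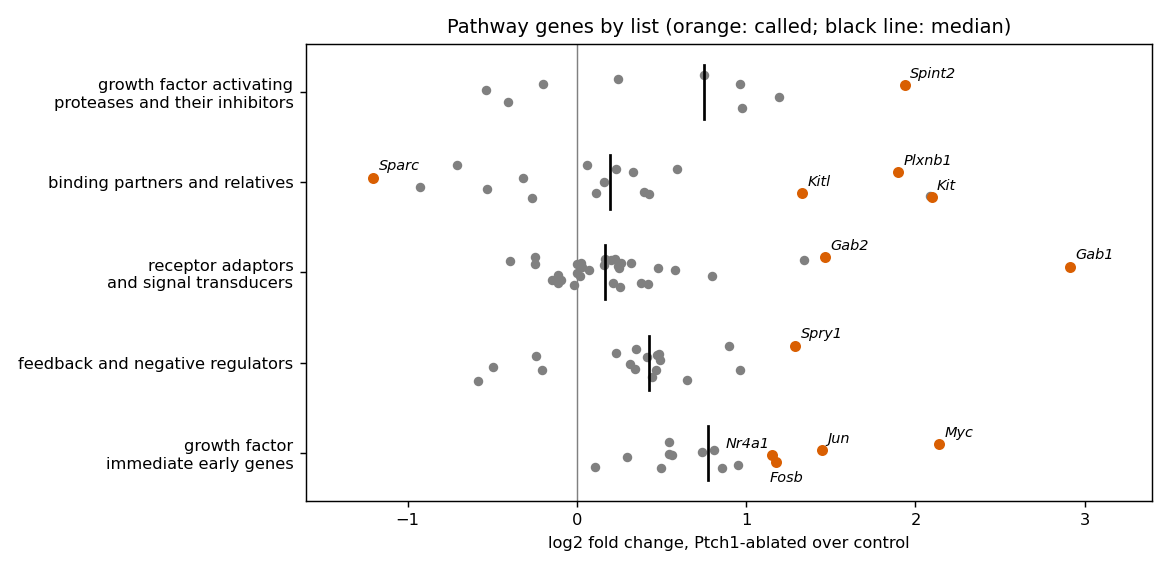
Log2 fold change, Ptch1-ablated over control (x axis), of each gene tested in the 5 lists (points, spread vertically for view), with called genes in orange and named and the list median as a black line. Gab1 lies farthest to the right at 2.91 and Sparc, at -1.20, is the gene called lower.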

How the data were processed

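Corneal keratocytes of control and Ptch1-ablated mice (3 libraries each) were profiled by bulk RNA-seq, the study describing the 3 as biological replicates. The labels and the study's methods name different library kits. The authors deposited expected counts together with TPM and FPKM values per gene. The submitters' processing notes name Bowtie2 2.2.5 and RSEM 1.2.12 and list build mm9. The FPKM values served only as an alternative scale for the ligand shares, their sum and the receptor ratio. The averaged columns were not used here.

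Expected counts were rounded to whole numbers and fitted in edgeR 4.0.16 (quasi-likelihood test, filterByExpr, TMM factors, R 4.3.3) on group alone, with Benjamini-Hochberg adjustment over 13888 genes. CPM used the TMM-scaled totals, and TPM was used to compare genes. Shares of the ligand pool were compared by exact permutation tests (scipy 1.17.1). The fit was tested on simulated data. Alternatives used DESeq2 1.42.0, limma 3.58.1, other scalings and filters, and libraries left out. The rule for named genes took all 8 ligands and receptors and any gene of the protease and binding partner lists. It took the called genes of the other lists and of the marker lists, and the most abundant gene of each marker list. It also took, for each of the 8 that was called, the 3 genes of most similar profile. Grb2, Ptpn11, Mapk3, Epcam, Cdh1, Tek and Slc4a11 fall outside the rule and were chosen after their values were seen. The genes and lists were chosen with earlier results of these data known. Start windows were from RefSeq on GRCm38.p6, and no file coordinates were combined with them.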

Additional observations from a re-analysis of the deposited data

How the results depend on the processing

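With 3 libraries a group, genes of few counts such as Met, Hgf and Pdgfd had wide intervals, and depth limits what could be seen for them. Where a cause is not given below, it was not tested. The alternatives that left out a pair of libraries were chosen after seeing the data. Same-numbered samples did not deviate together (correlations of -0.0223, -0.0626 and 0.0388, with only control replicate 3 correlating best with its own number), so the numbers were not taken to pair the samples. With a replicate block 663 genes were called in all, and Pdgfc kept its call (1.61, edgeR adjusted p = 0.0277). Met could not be tested at a mean count of at least 50.

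Of the 8 genes, 2 were called in both limma fits (TPM with 1 or 0.1 added), and 1 to 2 with 1 library left out, the second being Pdgfd. None (0) was called without control replicate 3 and Ptch1-ablated replicate 1, in a fit of fewer samples. Over all genes 763 were called, 1178 with no fold minimum. Of the calls 61.2% were higher, against 73% with library totals only and 73.1% and 73.4% in limma, where the median log2 ratio of all genes moved from 0.0046 to 0.173, 0.192 and 0.221. Directions that turned were those of genes not called. With 1 library left out the log2 ratio ran from -0.54 to 1.08 for Pdgfb (-0.0093 without control replicate 2), from -0.12 to 0.33 for Pdgfra, from -0.012 to 0.18 for Pdgfrb and from -0.41 to 0.93 for Met (-0.31 without control replicate 1). Without control replicate 1 and Ptch1-ablated replicate 2 it was -0.10 for Pdgfra and -0.052 for Pdgfrb, and without control replicate 3 and Ptch1-ablated replicate 1 it was -0.21 for Met. The difference in the share of Pdgfb was -0.927 percentage points in CPM and ran from -3.00 to 6.29 with 1 library left out. The difference in summed ligand TPM ran from -2.25 to 15.4, and that in the log2 ratio of Pdgfra to Pdgfrb from -0.13 to 0.19.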
